A study of Mus musculus with 12 samples.

Results

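The genes described here are 9 protease inhibitor genes of mouse chromosome 12, the Serpina1 copies Serpina1a, Serpina1b, Serpina1c, Serpina1d and Serpina1e and the Serpina3 genes Serpina3g, Serpina3k, Serpina3m and Serpina3n. They were found by matching the Ensembl identifiers of the count table to gene symbols. All 9 were among the 54839 features of the table, and all 9 passed the filter on low counts that left 17121 genes for testing. Poly(A) RNA was sequenced from hepatocytes of male p16-Tom mice on a C57BL/6 background, which are heterozygous for a tamoxifen-inducible Cre driven by p16 Ink4a and for a Cre-dependent tdTomato, so that cells using the p16 promoter become red (Tom+) after tamoxifen, given at 80 mg/kg. The mice received corn oil, or CCl4 at 1 mL/kg in corn oil, an agent that injures the hepatocytes around the central vein and leads to fibrosis, over 4 weeks, and Tom+ and Tom- cells were sorted by flow cytometry. This gave 4 groups of 3 libraries, namely Tom- oil, Tom+ oil, Tom- CCl4 and Tom+ CCl4. The ages of the mice, and whether same-numbered Tom+ and Tom- libraries came from one animal, are not given in the sources used here, so p-values measure the spread between these libraries.

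Serpins inhibit proteases by offering a reactive loop as bait. Cleavage of the loop changes the fold of the serpin and traps the protease in a covalent complex. Serpina1 genes encode alpha-1 antitrypsin, the main plasma inhibitor of neutrophil elastase, which hepatocytes secrete in large amounts. Humans have one such gene, whereas the mouse has several near-identical copies whose reactive loops differ. The Serpina3 genes are the mouse relatives of alpha-1 antichymotrypsin. Several of them are acute phase genes, which the liver uses more during inflammation under the control of STAT3 and C/EBP factors.

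All 9 genes lie on chromosome 12 (mm10), the Serpina1 genes on the minus strand and the Serpina3 genes on the plus strand. Serpina1b (ENSMUSG00000071178) is annotated at chr12:103728156-103830373, Serpina1d (ENSMUSG00000071177) at chr12:103763594-103773592, Serpina1a (ENSMUSG00000066366) at chr12:103853589-103863562, Serpina1c (ENSMUSG00000079015) at chr12:103894926-103904887 and Serpina1e (ENSMUSG00000072849) at chr12:103946931-103958975. Serpina3g (ENSMUSG00000041481) follows at chr12:104236245-104241939, Serpina3k (ENSMUSG00000058207) at chr12:104338486-104346144, Serpina3m (ENSMUSG00000079012) at chr12:104338486-104394257 and Serpina3n (ENSMUSG00000021091) at chr12:104406729-104414329. Serpina3k and Serpina3m share a first exon of 60 bases (chr12:104338486-104338545). Serpina1c shares 429 exonic bases with the antisense gene B430119L08Rik, whose counts were 42.6 to 48.4% of those of Serpina1c (median 46.0%). The libraries keep strand, but the strand setting of the counting is not given in the sources used here, so reads of this pair cannot be told apart.

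Promoter sequence shows how alike the copies are. RefSeq windows of the 250 bases before the RefSeq gene start (GRCm38.p6, the same build as mm10) were found for 7 of the 9 genes. These starts differ from the gene coordinates given above, and the windows of Serpina1b and Serpina1e lie inside those coordinates. Aligned pairwise, those of the 5 Serpina1 genes were 92.1 to 98.0% identical. TTGCNNAA, a C/EBP motif, was in the windows of Serpina1b, Serpina1d and Serpina1e and in 9.56% of 32851 promoter windows of the same length. It was not in those of Serpina1a and Serpina1c. TTCNNNGAA, a STAT motif, was in the Serpina3g window alone among the 7 and in 7.02% of all windows, and the Serpina3n window held neither motif. Both strands were searched. A match to these letters is a description of the window and does not show binding. The windows of Serpina1a and Serpina1e (minus strand, chr12:103863620-103863869 and chr12:103956898-103957147) are shown as examples without and with the C/EBP motif. That of Serpina3g (plus strand, chr12:104235897-104236146) is shown because it held the STAT motif. Serpina1b and Serpina1d, with the same C/EBP match, did not show the drop of Serpina1e described below. A link between motif and level was not tested. Each runs 5′ to 3′ towards the gene start, with the motif matches in capitals, so that the Serpina1a window has none.
Serpina1a: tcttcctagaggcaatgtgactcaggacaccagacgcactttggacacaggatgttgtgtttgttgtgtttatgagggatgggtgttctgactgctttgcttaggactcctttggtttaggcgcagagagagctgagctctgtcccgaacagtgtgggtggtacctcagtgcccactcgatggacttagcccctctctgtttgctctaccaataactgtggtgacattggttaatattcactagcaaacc
Serpina1e: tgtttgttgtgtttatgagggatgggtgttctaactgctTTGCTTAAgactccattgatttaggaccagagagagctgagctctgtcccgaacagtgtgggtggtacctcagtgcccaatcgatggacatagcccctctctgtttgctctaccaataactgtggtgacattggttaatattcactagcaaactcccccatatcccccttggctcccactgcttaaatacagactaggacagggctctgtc
Serpina3g: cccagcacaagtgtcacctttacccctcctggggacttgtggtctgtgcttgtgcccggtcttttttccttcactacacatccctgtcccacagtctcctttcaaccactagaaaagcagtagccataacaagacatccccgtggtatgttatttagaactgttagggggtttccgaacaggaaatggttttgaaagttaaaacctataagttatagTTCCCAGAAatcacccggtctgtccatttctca

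Near-identical copies share reads, and the deposited counts carry that sharing as fractions. For Serpina1a to Serpina1e, Serpina3k and Serpina3m the counts had a fractional part in 12 of 12 libraries, for Serpina3n in 10 and for Serpina3g in 9. Between 30.4 and 32.9% of all values above 0 in a library were not whole. In GENCODE transcripts, 58.5% of the 100-base windows of Serpina1c were found without mismatch in another gene, as were 49.9% for Serpina1a, 29.3% for Serpina1d, 20.6% for Serpina1b and 14.8% for Serpina1e. The shared windows lay in one another and in Gm8893. For the Serpina3 genes the shares were 6.09% (Serpina3m), 4.85% (Serpina3k), 4.64% (Serpina3g) and 0.204% (Serpina3n). Aligned Serpina1 transcripts were 96.2 to 98.5% identical in pairs and Serpina3 transcripts 82.9 to 91.6%. How reads were divided among the Serpina1 copies can thus set the value of each copy, so sums over the copies are given beside single genes.

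Library totals were 37568584 to 75331424 counts, and the 9 genes held 2.02 to 3.57% of them (median 2.98%). Counts per gene and library were 67712 or more for each Serpina1 gene, 132163 or more for Serpina3k, 18100 or more for Serpina3m and Serpina3n, and 75.5 to 378 for Serpina3g. The table holds an unnamed feature on an added sequence, taken here as the tdTomato reporter. It was at 1343, 1316 and 1369 CPM (counts scaled by TMM and by library size) in Tom+ CCl4 replicates 1, 2 and 3 and at 120 to 263 CPM in Tom- CCl4. In the library labelled Tom- oil replicate 1 it was at 1794 CPM, against 157 and 143 in replicates 2 and 3, and in the library labelled Tom+ oil replicate 2 at 135, against 1546 and 1225 in replicates 1 and 3. Reporter and label thus disagree in 2 oil libraries, and the calls of members and of other named genes that use this pair are given with and without it. By the reporter, both oil libraries numbered 1 were high and both numbered 2 were low. Only the oil libraries numbered 3 thus set a high against a low reporter. Levels, sums, ratios, counts of groups without overlap and correlations use all 12 libraries. Of the hepatocyte markers, 10 of 10 were above 3 counts in every library, and their summed level was 109840 to 157894 CPM.

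Of the 9 genes, 6 stood among the most abundant transcripts of these cells. By mean TPM (a level per gene length, scaled to the same total in every library) over the 12 libraries, Serpina1e ranked at 13 of 54839 features (7662 TPM), Serpina1c at 19, Serpina3k at 22, Serpina1a at 29, Serpina1b at 31 and Serpina1d at 33. Serpina3m ranked at 167 (729 TPM) and Serpina3n at 198 (644 TPM), and Serpina3g, an intracellular serpin known from leukocytes, at 9141 (4.45 TPM).

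In Tom- oil the order of levels was Serpina1e (9424 ± 668 TPM, SD, n = 3), Serpina3k (8231 ± 299), Serpina1c (7748 ± 606), Serpina1a (6471 ± 173), Serpina1b (5739 ± 384), Serpina1d (5410 ± 160), Serpina3m (806 ± 66.6), Serpina3n (745 ± 36.1) and Serpina3g (4.68 ± 3.65). Neighbours in that order whose 3 libraries overlapped were Serpina3k and Serpina1c, Serpina1b and Serpina1d, and Serpina3m and Serpina3n. In Tom+ CCl4 the order was different, with Serpina1c (5470 ± 324 TPM) and Serpina1e (5428 ± 2501) before Serpina1a (4945 ± 162), Serpina1b (4628 ± 390), Serpina3k (4153 ± 742) and Serpina1d (4083 ± 299). Each of these 6 overlapped with its neighbour in the order. Serpina3m (644 ± 54.8 TPM), Serpina3n (511 ± 59.8) and Serpina3g (3.33 ± 0.927) followed without overlap.

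**Figure D1:**
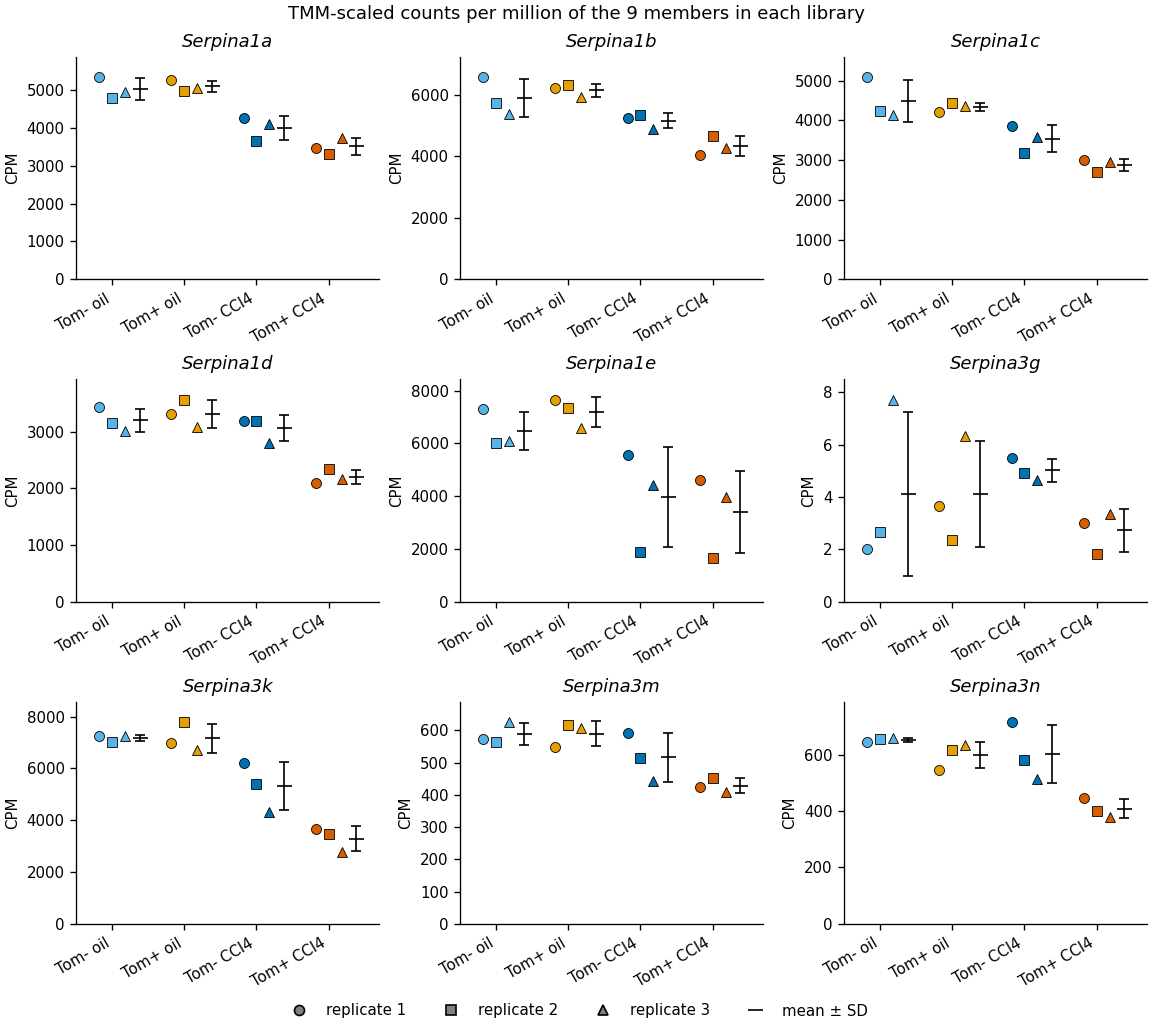
TMM-scaled level (vertical axis, CPM, from 0) of each of the 9 genes in the 12 libraries, by group, with symbols for replicates 1 to 3 and the mean ± SD of 3 libraries at the right of each group. Serpina3k in Tom+ CCl4 lay between 2759 and 3657 CPM, below all other groups, and Serpina1e was lowest in both CCl4 libraries numbered 2.

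Oil-treated mice gave the first comparison, Tom+ against Tom- hepatocytes without CCl4 injury. The 9 genes had log2 fold changes (of TMM-scaled counts, by edgeR) between -0.12 and 0.15, the former for Serpina3n (SE 0.12) and the latter for Serpina1e (SE 0.41). None was called, a call being an adjusted p under 0.05 over all genes together with a log2 fold change beyond 0.75. Of all genes tested 0.0% were called here in either direction, with 1198 of 17121 at an unadjusted p under 0.05, and DESeq2 called none of the 9. Serpina3n was the one member whose groups did not overlap, with 643, 655 and 657 CPM in Tom- and 545, 616 and 635 in Tom+ replicates 1, 2 and 3 (5.57% of all genes were without overlap and lower). Its adjusted p was 0.874. Without the doubted pair of oil libraries no member was called either.

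CCl4-treated mice gave the second comparison, Tom+ against Tom- hepatocytes of the injured liver. The fitted difference was below 0 for 9 of 9 members, with a median log2 fold change of -0.29 against 0.00 for all genes. Lists of related genes, given below, had medians of -0.64 to -0.03. No member passed both thresholds by edgeR or DESeq2 (1.96% of genes did by edgeR, 1.74% as lower). On the adjusted p alone, 3 members were lower in Tom+, Serpina3k, Serpina3n and Serpina1d, where 3.83% of all genes were. With same-numbered libraries as blocks, a pairing taken from the correlations of their deviations, 7 members had an adjusted p under 0.05 and were lower (9.72% of all genes), the exceptions being Serpina1a and Serpina1e, and Serpina3g was called.

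Serpina3k, related to the kallikrein-binding serpins, was at 6215, 5414 and 4335 CPM in Tom- CCl4 and at 3657, 3467 and 2759 in Tom+ CCl4 replicates 1, 2 and 3. Every Tom+ library lay below every Tom- library, and the fold change was -0.69 on the log2 scale (SE 0.14, adjusted p = 0.0147). Serpina3n, an inhibitor of granzyme B and other serine proteases, was at 716, 579 and 513 CPM in Tom- and 445, 400 and 378 in Tom+ CCl4. Its groups did not overlap either (log2 fold change -0.56, SE 0.12, adjusted p = 0.0179). Serpina1d was at 3197, 3188 and 2805 CPM in Tom- and 2100, 2341 and 2165 in Tom+ CCl4, again without overlap (log2 fold change -0.48, SE 0.10, adjusted p = 0.0182). Serpina3g was at 5.49, 4.92 and 4.65 CPM in Tom- and 3.003, 1.81 and 3.36 in Tom+ CCl4, which are few counts, and had a log2 fold change of -0.88 (SE 0.48, adjusted p = 0.316). With the block its adjusted p was 0.0174.

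The remaining members had log2 fold changes of -0.29 (Serpina1c), -0.27 (Serpina3m), -0.25 (Serpina1b), -0.22 (Serpina1e) and -0.19 (Serpina1a), with adjusted p of 0.127 to 0.808. In all, 6 members had groups without overlap and were lower in Tom+, beside 14.6% of all genes. Of 3 same-numbered pairs of CCl4 libraries, Tom+ was the lower one in 3 for each of the 9 members. The share of all genes with such pairs was not counted, and copies that share reads are not separate observations. For Serpina1a and Serpina1e the lower value in Tom+ depends on the scaling. On the TPM scale the median of all genes was 0.16 higher in Tom+ than in Tom- CCl4 (log2), no member passed an adjusted p of 0.05, 1 member (Serpina3g) was without overlap and lower, beside 6.21% of genes, and the differences of Serpina1a and Serpina1e turned to 0.05 and 0.03. With scaling to library totals alone the median of all genes was 0.15, and Serpina3k, Serpina3n and Serpina1d were still the 3 members with an adjusted p under 0.05, all lower. Without Tom- replicate 2 or without Tom+ replicate 2 no member had an adjusted p under 0.05.

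Markers of liver position moved in the same comparison. Sds, a periportal enzyme of serine breakdown, fell in Tom+ CCl4 (log2 fold change -1.39, SE 0.21, adjusted p = 0.00625), and Cyp2e1, a pericentral cytochrome, had a value of 0.99 (SE 0.40, adjusted p = 0.175). The summed level of 10 endothelial markers was 363 to 382 CPM in Tom- and 183 to 255 in Tom+ CCl4, and 6 of the 10 fell by the test. That of the 10 hepatocyte markers was 146173 to 157894 CPM in Tom- and 117019 to 129785 in Tom+ CCl4, with 0 of the 10 called. Their part in the results of the members was not tested.

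**Figure D2:**
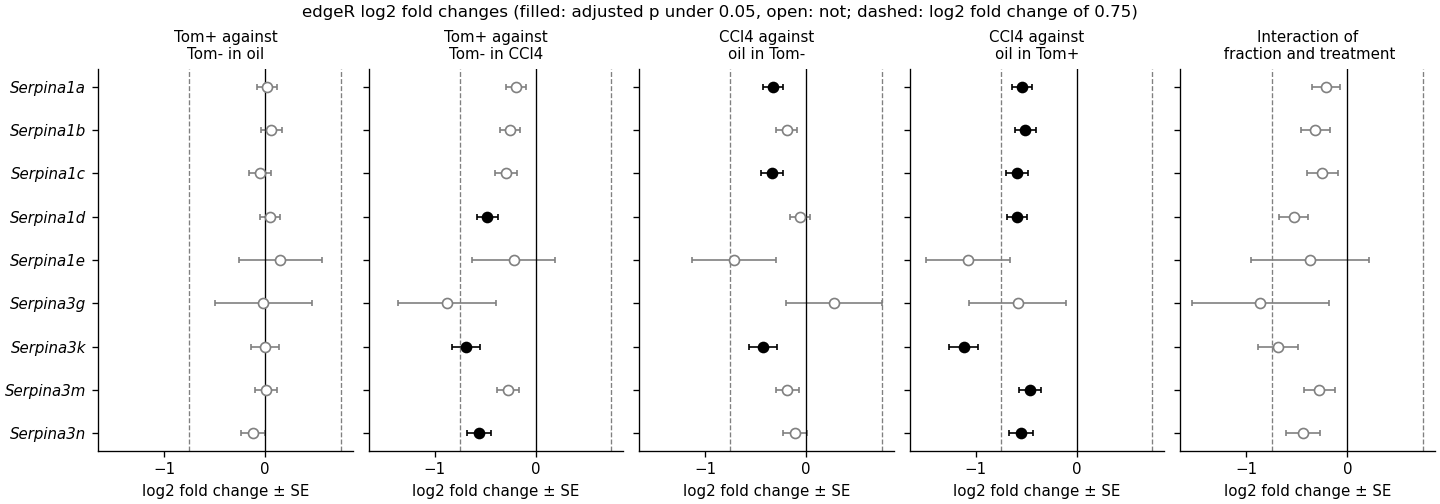
edgeR log2 fold changes with their standard errors (horizontal axis) of the 9 genes in the 5 contrasts, with filled points for an adjusted p under 0.05 and dashed lines at the threshold of 0.75. The filled points are 3 in Tom+ against Tom- in CCl4, 3 in CCl4 against oil in Tom- and 7 in CCl4 against oil in Tom+, and Serpina3k in the last of these is the one filled point beyond the dashed line.

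Treatment was compared within each sorted fraction. In Tom- hepatocytes, CCl4 libraries were lower than oil libraries for 8 of 9 members in fitted value, the exception being Serpina3g (0.28, SE 0.48), with a median log2 fold change of -0.19. None passed both thresholds by edgeR or DESeq2, where by edgeR 7.92% of genes did, 6.33% as higher and 1.59% as lower. On the adjusted p alone 3 members were lower (6.75% of genes), Serpina3k (-0.43, SE 0.14, adjusted p = 0.0493), Serpina1c (-0.34, SE 0.11, adjusted p = 0.0482) and Serpina1a (-0.33, SE 0.10, adjusted p = 0.0364). All 3 adjusted p lay near the threshold. By the same rule 0 members were lower with upper-quartile scaling, with at least 10 counts in every library, or in a fit of the 6 Tom- libraries. With RLE, another scaling, 1 was lower. Serpina1a was at 5343, 4785 and 4963 CPM in Tom- oil and at 4268, 3657 and 4102 in Tom- CCl4 replicates 1, 2 and 3, and Serpina1c at 5085, 4235 and 4125 and at 3855, 3175 and 3577. The groups of both were apart, as were those of Serpina1b, Serpina1e and Serpina3k, 5 members in all, beside 16.8% of genes. Serpina3n (-0.11, SE 0.12, adjusted p = 0.547) and Serpina1d (-0.06, SE 0.10, adjusted p = 0.706) had the values nearest to 0. Without the 2 doubted oil libraries no member had an adjusted p under 0.05, and the same held on leaving out Tom- oil replicate 1 or 2, Tom- CCl4 replicate 2 or 3 or Tom+ CCl4 replicate 1 alone.

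In Tom+ hepatocytes the fitted value of CCl4 against oil lay below that in Tom- for 9 of 9 members. The interaction, given below, tests this and was called for none of them. On the TPM scale the interaction of Serpina1a was 0.0341. Serpina3k fell from 6988, 7797 and 6692 CPM in oil to 3657, 3467 and 2759 CPM in CCl4 replicates 1, 2 and 3. The groups lay far apart, and the log2 fold change was -1.12 (SE 0.14, adjusted p = 0.00037). It was the 1 member of 9 to pass both thresholds, beside 5.24% of all genes (2.34% as lower). It was called in 26 of 26 alternative settings, with values from -1.21 to -0.81. The -0.81 comes from Tom+ and Tom- counts summed per treatment and number and is not a value of Tom+ alone. The settings overlap, since 1 drops the fold threshold from the main fit and those without a Tom- library keep all libraries compared here. Leaving out single libraries gave -1.21 to -1.01. Without the doubted pair of oil libraries the value of Serpina3k was -1.05 (adjusted p = 0.00417).

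On the adjusted p alone, 7 of 9 members were lower in Tom+ CCl4 than in Tom+ oil, where 4.56% of genes were. Beside Serpina3k they were Serpina1d (-0.59, SE 0.10, adjusted p = 0.00306), Serpina1c (-0.59, SE 0.11, adjusted p = 0.00502), Serpina3n (-0.55, SE 0.12, adjusted p = 0.0109), Serpina1a (-0.54, SE 0.10, adjusted p = 0.00426), Serpina1b (-0.51, SE 0.10, adjusted p = 0.00839) and Serpina3m (-0.46, SE 0.11, adjusted p = 0.0182). Serpina1e had one of the 2 largest fold changes and missed the threshold (-1.08, SE 0.42, adjusted p = 0.145), and Serpina3g did so too (-0.58, SE 0.48, adjusted p = 0.509). In all, 8 members, every one but Serpina3g, had CCl4 libraries wholly below the oil libraries, beside 14.6% of genes. Without the doubted pair of oil libraries 5 members stayed under an adjusted p of 0.05, and leaving out any one library left 5 to 7. On the TPM scale the same count of 8 members lay wholly below oil, beside 6.79% of genes, and Serpina3k had a log2 fold change of -0.99 (limma, adjusted p = 0.00338). By that fit 5 members stayed under an adjusted p of 0.05. In Tom- 6 members lay wholly below oil on the TPM scale, beside 24.9% of genes. Both treatment contrasts share their CCl4 and oil libraries with the contrasts of Tom+ against Tom- and are not independent of them.

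Some markers of other liver cells also differed between CCl4 and oil. The summed level of 10 stellate cell markers was 7.30 to 18.2 CPM in Tom- oil and 70.9 to 90.4 in Tom- CCl4, and 8.95 to 23.2 in Tom+ oil and 52.3 to 107 in Tom+ CCl4, and of 9 tested 7 rose in Tom- and 6 in Tom+. For 10 endothelial markers the sums were 143 to 211 CPM in Tom- oil and 363 to 382 in Tom- CCl4, where 10 of 10 rose, and 160 to 262 in Tom+ oil and 183 to 255 in Tom+ CCl4, where 0 were called. For 12 macrophage markers they were 20.6 to 111 and 144 to 178 CPM in Tom- (1 called) and 34.6 to 166 and 82.6 to 242 in Tom+ (0 called). For 8 cholangiocyte markers they were 5.25 to 7.38 CPM in oil and 8.47 to 18.04 in CCl4. The 11 lymphocyte markers summed to 0.523 to 5.12 CPM and the 8 neutrophil markers to at most 1.39 CPM over all libraries. Above 3 counts in every library were 10 of 10 endothelial, 12 of 12 macrophage, 8 of 10 stellate, 2 of 8 cholangiocyte, 1 of 11 lymphocyte and 0 of 8 neutrophil markers. The share of these cells in the differences of the members was not tested. In bulk samples fewer cells of a type and less RNA per cell cannot be told apart.

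Whether CCl4 changed the difference between Tom+ and Tom- was tested as an interaction. It was below 0 for 9 of 9 members and called for none (1.17% of genes were called, 0.958% as lower, and 3178 had an unadjusted p under 0.05). DESeq2 called none of the 9 on both thresholds. On the adjusted p alone no member passed by edgeR (1.07% of genes as lower) and 2 did by DESeq2. The values nearest to the threshold were Serpina1d (-0.53, SE 0.14, adjusted p = 0.0760), Serpina3k (-0.69, SE 0.20, adjusted p = 0.0888) and Serpina3n (-0.44, SE 0.17, adjusted p = 0.181). With the block the same 3 and Serpina1e had an adjusted p under 0.05, 0.00528 for Serpina1d, 0.000911 for Serpina3k, 0.0146 for Serpina3n and 0.0267 for Serpina1e, beside 7.18% of genes as lower, and none of the 4 passed the fold threshold. The doubted oil libraries enter this contrast, also in the fit with the block, which was not run without them. Without them, and without the block, the adjusted p of Serpina1d was 0.157 and that of Serpina3k 0.256.

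**Figure D3:**
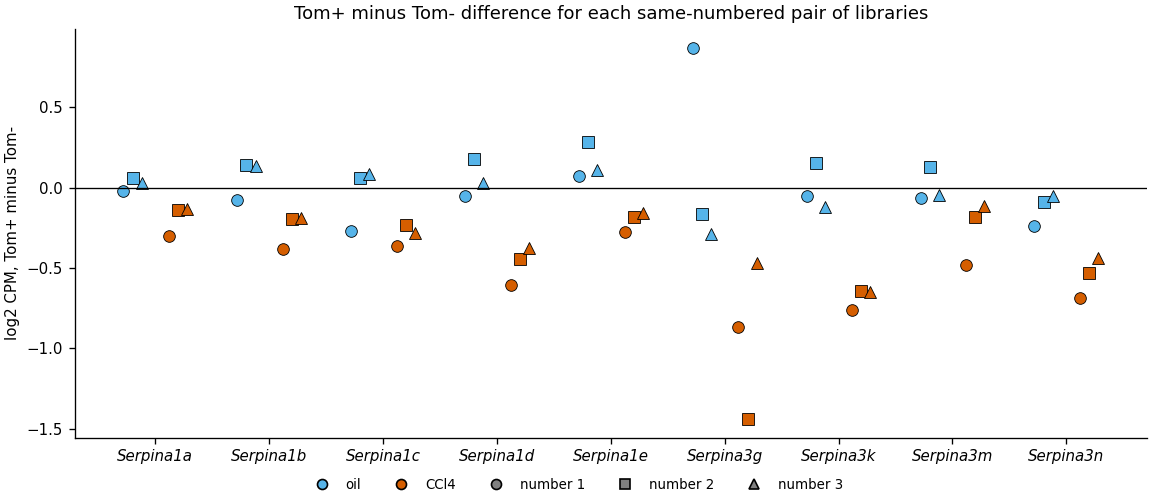
Difference in log2 CPM between the Tom+ and the Tom- library of the same number (vertical axis), for oil and CCl4 and for each of the 9 genes. All CCl4 pairs lie below 0, and the oil pairs lie on both sides of it for 7 genes, with Serpina1e above 0 and Serpina3n below 0 in all 3 oil pairs. By reporter level, only the oil pair numbered 3 sets a high against a low library. The share of all genes with all CCl4 pairs below 0 was not counted.

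Serpina1e behaved unlike its sister copies. It was at 7290, 6025 and 6108 CPM in Tom- oil, at 7661, 7343 and 6580 in Tom+ oil, at 5577, 1872 and 4410 in Tom- CCl4 and at 4612, 1647 and 3956 in Tom+ CCl4 replicates 1, 2 and 3. Both CCl4 libraries numbered 2, Tom- and Tom+, stood far below the rest. Its share of the summed TPM of the 5 Serpina1 genes was 26.5 to 30.3% in the 6 oil libraries, 23.5 to 28.2% in the CCl4 libraries numbered 1 and 3, and 11.6% (Tom-) and 12.1% (Tom+) in those numbered 2.

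The other 4 copies did not show this drop. Their summed level was 16576, 15347 and 15363 CPM in Tom- CCl4 and 12606, 13028 and 13133 CPM in Tom+ CCl4 replicates 1, 2 and 3. Within the sum, Serpina1a and Serpina1c were lowest of their group in replicate 2, and Serpina1b was highest. Without both CCl4 libraries numbered 2, the fold change of Serpina1e between CCl4 and oil in Tom+ was -0.75 (adjusted p = 0.0201) in place of -1.08 (adjusted p = 0.145), and in Tom- -0.38 (adjusted p = 0.155) in place of -0.71 (adjusted p = 0.272). This setting was chosen after seeing the data. Without these 2 libraries 6 members had an adjusted p under 0.05 in CCl4 against oil in Tom+, and none in the comparison of Tom+ with Tom- in CCl4 or in CCl4 against oil in Tom-. Of the 17520 genes tested then, 0 were called in Tom+ against Tom- in CCl4.

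**Figure D4:**
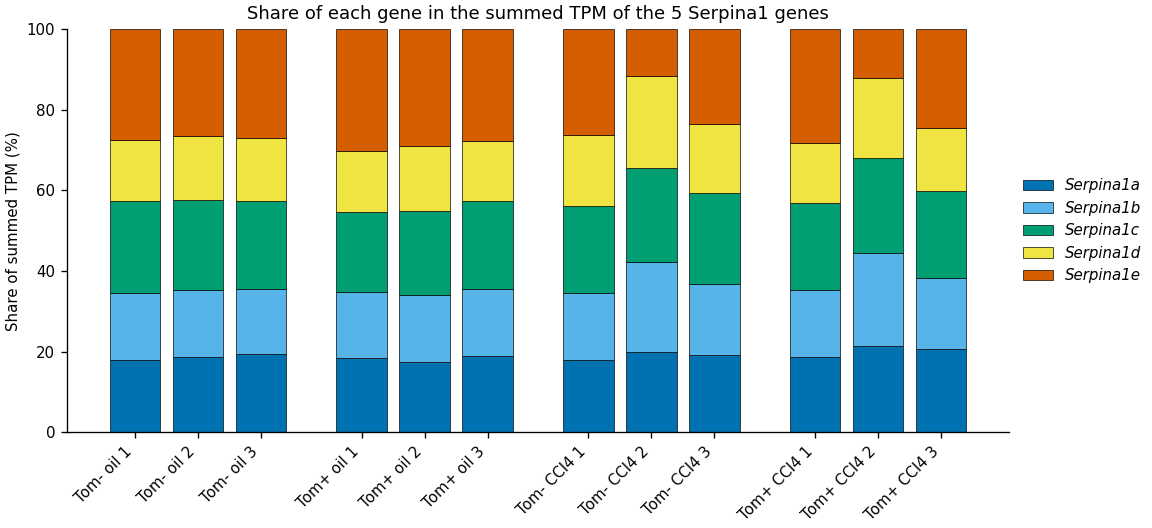
Share of each Serpina1 gene (vertical axis, percent) in the summed TPM of the 5 genes, one bar per library, in groups of 3. The share of Serpina1e is 11.6% in Tom- CCl4 2 and 12.1% in Tom+ CCl4 2 and at least 23.5% in the other 10 libraries.

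As a sum, the 5 Serpina1 genes reached 25074 ± 2291 CPM (SD, n = 3) in Tom- oil, 26103 ± 960 in Tom+ oil, 19715 ± 2468 in Tom- CCl4 and 16328 ± 1432 in Tom+ CCl4. Without Serpina1e the sums were 18600 ± 1592, 18908 ± 450, 15762 ± 705 and 12922 ± 279 CPM. On either sum every CCl4 library was lower than every oil library, and on the sum without Serpina1e each Tom+ CCl4 library lay below each Tom- CCl4 library. The latter holds in CPM and not in TPM, in which the sum without Serpina1e was 21659, 19658 and 18765 in Tom- CCl4 and 19296, 19481 and 18600 in Tom+ CCl4 replicates 1, 2 and 3, which overlap. The 4 Serpina3 genes summed to 8418 ± 160, 8352 ± 592, 6445 ± 1119 and 4133 ± 518 CPM in the same order. These sums are a description and were not tested.

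Serpina3k and Serpina3m, which share their first exon, did not move in proportion. Of their 100-base windows, 4.85% (Serpina3k) and 6.09% (Serpina3m) are found in the other gene. How such reads were divided is not known, so the value of the lower gene, Serpina3m, and the ratio can depend on it. The ratio of their TPM, which does not depend on the scaling of a library, was 10.6, 10.4 and 9.70 in Tom- oil and 10.7, 10.6 and 9.22 in Tom+ oil replicates 1, 2 and 3. It was 8.76, 8.78 and 8.21 in Tom- CCl4 and 7.20, 6.39 and 5.66 in Tom+ CCl4. The means were 10.2 ± 0.465, 10.2 ± 0.816, 8.58 ± 0.326 and 6.42 ± 0.772 (SD, n = 3). All CCl4 libraries were below all oil libraries, and all Tom+ CCl4 libraries below all Tom- CCl4 libraries, while the oil groups overlapped. Serpina3k held 83.1 to 85.3% of the summed Serpina3 TPM in oil and 76.1 to 79.3% in Tom+ CCl4, and Serpina3m 7.99 to 9.01% and 11.01 to 13.4%.

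**Figure D5:**
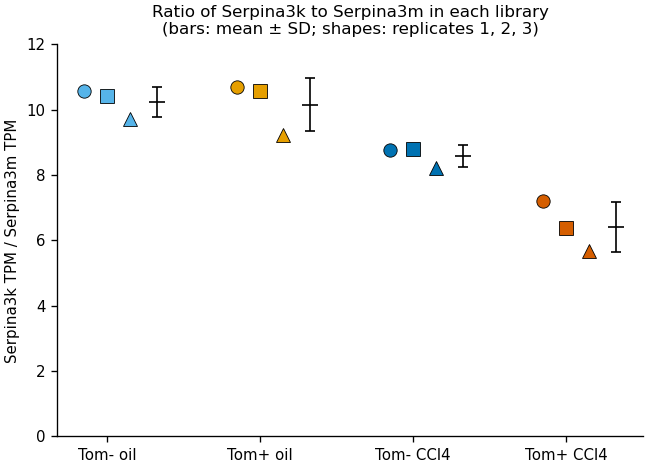
Ratio of Serpina3k TPM to Serpina3m TPM (vertical axis, from 0) in each library by group, with the mean ± SD of 3 libraries at the right of each group. The ratio lies between 9.22 and 10.7 in the oil libraries, between 8.21 and 8.78 in Tom- CCl4 and between 5.66 and 7.20 in Tom+ CCl4.

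Levels of the members over the 12 libraries were compared with those of other genes by Pearson's r of log2 CPM. The genes came from 7763 with a mean of at least 10 CPM, from which the members were left out. This is a description over libraries that share groups and depth. Serpina1c was most like B430119L08Rik (0.99), its overlapping antisense gene, Mup3 (0.97), a major urinary protein gene, and Cfhr3 (0.95), and Serpina1a like B430119L08Rik (0.95), Mup7 and Mup3 (both 0.94). Serpina1b was most like Ass1, Asl and Gm5424 (all 0.95), and Serpina1d like Pigr and Scarb1 (both 0.96) and Asl (0.95). Ass1 and Asl are enzymes of the urea cycle. Serpina1e was most like Vmac (0.93), C9 (0.92) and Psmb8 (0.90). Serpina3k was most like Il1rap (0.98), C8b (0.97) and Pcsk6 (0.96), Serpina3m like Calr, Gm45753 and Pdia3 (all 0.97), and Serpina3n like Itih3 (0.97), Pdia6 and Adck5 (both 0.96). Serpina3g had the lowest values, with 0.87 for Lbp and 0.86 for Ly6e and Nod1. Between members r was highest for Serpina1a with Serpina1c (0.97) and Serpina3k with Serpina3m (0.94) and lowest for Serpina1b with Serpina3g (-0.02).

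In CCl4 against oil the wider serpin family did not follow the members as one. Of 17 other clade A genes 11 were tested. In CCl4 against oil in Tom+, Serpina7 (3.01, SE 0.50, adjusted p = 0.00717), the thyroxine-binding globulin, and Serpina6 (0.84, SE 0.15, adjusted p = 0.00433), the corticosteroid-binding globulin, rose, whereas Serpina12 (-3.19, SE 0.48, adjusted p = 0.00274), known as vaspin, and Serpina9 (-3.08, SE 0.74, adjusted p = 0.0198) fell. Serpina7 was at 4.69, 14.7 and 6.27 CPM in Tom+ oil and at 67.9, 85.6 and 53.1 in Tom+ CCl4. Serpina9 was at 0.61 to 1.39 CPM in Tom+ oil and at 0.04 to 0.21 in Tom+ CCl4, which are few counts. Serpina12 also fell in Tom- (-1.998, SE 0.46, adjusted p = 0.0154). None of the 11 was called in Tom+ against Tom- of either treatment or as an interaction. Of 15 tested serpins of other clades, Serpinh1, a collagen chaperone, rose with CCl4 in Tom- (2.21, SE 0.32, adjusted p = 0.00119) and in Tom+ (1.28, SE 0.31, adjusted p = 0.0211). Serpinb1a, Serpinb9 and Serpine2 fell in both, by 1.77, 1.01 and 1.09 in Tom- and by 1.82, 1.16 and 1.40 in Tom+ on the log2 scale. On the adjusted p alone, 2 of the 11 and 3 of the 15 were lower in Tom+ against Tom- in CCl4, with none higher. By that rule 3 of 9 members and 3.83% of all genes were lower.

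Of 29 genes found from a list of proteases, 23 were tested. Mmp9 (4.83, SE 1.105, adjusted p = 0.0109) and Klk1 (2.11, SE 0.45, adjusted p = 0.00791) rose with CCl4 in Tom-. Mmp9 was at 0 to 0.041 CPM in Tom- oil, under 3 counts, and at 0.25 to 0.89 in Tom- CCl4. F11, coagulation factor XI, fell with CCl4 in Tom+ (-0.77, SE 0.16, adjusted p = 0.00971). In Tom+ against Tom- none was called in either treatment. On the adjusted p alone, 6 of the 23 were lower in Tom+ against Tom- in CCl4, with none higher, beside 3.83% of all genes. Elane, the neutrophil elastase gene that alpha-1 antitrypsin is known to act against, was not called in any contrast. It was at 0 to 0.76 CPM.

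Of 26 genes for the transcriptional control of acute phase genes, Osmr (1.41, SE 0.33, adjusted p = 0.0115), the oncostatin M receptor, and Socs3 (1.69, SE 0.46, adjusted p = 0.0331), a feedback inhibitor of STAT3 signalling, rose with CCl4 in Tom-. No other was called in any contrast, and the log2 fold changes of Stat3 and Cebpb lay between -0.34 (Cebpb, CCl4 against oil in Tom+) and 0.11 (Stat3, Tom+ against Tom- in CCl4). Among 28 partner acute phase genes, Saa1 (-3.05, SE 0.55, adjusted p = 0.00745) and Saa2 (-3.55, SE 0.79, adjusted p = 0.0183), the serum amyloid A genes, fell with CCl4 in Tom-. Hpx, hemopexin, fell in Tom+ against Tom- in CCl4 (-0.84, SE 0.19, adjusted p = 0.0258) and with CCl4 in Tom+ (-0.89, SE 0.19, adjusted p = 0.0120). Orm3 also fell in the former (-0.86, SE 0.23, adjusted p = 0.0466), with groups that overlapped. Of 26 genes for folding, quality control and export of alpha-1 antitrypsin, Derl3 fell with CCl4 in Tom- (-2.17, SE 0.65, adjusted p = 0.0437) and Calr, calreticulin, in Tom+ (-0.78, SE 0.18, adjusted p = 0.0144). The medians of these 3 lists in CCl4 against oil in Tom+ were -0.22, -0.23 and -0.30. Those of other clade A genes, serpins of other clades and proteases were -0.45, -0.20 and -0.09. The members had -0.58 and all genes 0.00. In Tom+ against Tom- in CCl4 the lists in the same order had -0.03, -0.40, -0.17, -0.64, -0.34 and -0.36. The members had -0.29 there. On the adjusted p alone, 1 of 26, 6 of 28 and 3 of 26 genes of the first 3 lists were lower in Tom+ CCl4, with none higher. Of the 5 zone markers, Hal (-1.79, SE 0.28, adjusted p = 0.00352) and Sds (-1.93, SE 0.21, adjusted p = 0.0002), both periportal, fell with CCl4 in Tom+. Lgr5, pericentral, rose there (3.21, SE 0.81, adjusted p = 0.0382). Sds was also the one zone marker called as an interaction (-1.58, SE 0.29, adjusted p = 0.0276). Of 27 calls of list genes in contrasts with oil libraries, 18 held without the doubted pair. The other 9 kept their sign with adjusted p of 0.0506 (F11) to 0.130 (Socs3). They were those of Serpina9, Klk1, F11, Socs3, Saa2, Calr and Derl3, and those of Serpinb1a and Serpinh1 in Tom+.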

How the data were processed

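RNA was sequenced from 12 libraries, 3 each of Tom- and Tom+ hepatocytes from oil- and CCl4-treated mice, poly(A)-enriched and strand-specific. Reads were checked with fastp 0.23.2 and aligned to mm10 with HISAT2 2.1.0, per the labels. The deposited table holds estimated counts per gene, with fractions where a read was divided, and gene lengths. The counting program and its strand setting are not given in the sources used here. The deposited counts were rounded to whole numbers. TPM was computed here from them and the deposited lengths.

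One edgeR 4.0.16 quasi-likelihood model (TMM, filterByExpr, R 4.3.3) was fitted to all 12 libraries and 17121 genes, with Benjamini-Hochberg adjustment over all genes. A call needed an adjusted p under 0.05 and a log2 fold change beyond 0.75. Alternatives were DESeq2 1.42.0, limma 3.58.1, other scalings and filters, a replicate block and left-out libraries. The code was tested on simulated counts. The members and gene lists were chosen with earlier results of these data known. Named beyond the members were the called genes of each list, at most 5 per list, contrast and direction, and for likeness the 3 genes with the highest r among those with a mean of at least 10 CPM. Samples were grouped by the labels as deposited.

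Deviations of same-numbered Tom+ and Tom- libraries from their group means correlated at 0.205 to 0.318 in oil and 0.187 to 0.401 in CCl4, so the numbers were taken to pair them. Between oil and CCl4 the correlations were 0.00898 to 0.0483 (Tom-) and 0.0182 to 0.226 (Tom+), so these share only a number. Sequences are from RefSeq (GRCm38.p6) and GENCODE transcripts of the same build, aligned with Biopython 1.88. Some genes of the lists are not reported here.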

Additional observations from a re-analysis of the deposited data

Results flagged for a closer look

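By label, Serpina1e went in opposite directions in the 2 treatments. The Tom+ library was above the same-numbered Tom- library in 3 of 3 oil pairs (by 0.07 to 0.29 in log2 CPM). It was below it in 3 of 3 CCl4 pairs (by -0.27 to -0.16). The interaction of fraction and treatment was -0.37 on the log2 scale (SE 0.58, adjusted p = 0.787 without the block and 0.0267 with it) and was not called. On the TPM scale the difference between Tom+ and Tom- in CCl4 was 0.03, so that the opposite direction in CCl4 rests on the scaling. One Tom- and one Tom+ oil library, of different numbers, had a reporter level against their labels. Of the oil pairs, only that numbered 3 therefore set a reporter-high against a reporter-low library. The value with the block rests on all 3 oil pairs.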

How the results depend on the processing

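Tom+ against Tom- in oil and the interaction gave 0 called members in the fits that keep all libraries, and the oil comparison did so in each alternative run. With the replicate block the called members were 1 in Tom+ against Tom- in CCl4 (Serpina3g) and 2 in CCl4 against oil in Tom+ (Serpina3k and Serpina1e). In CCl4 against oil the block joins libraries that share only a number, and without it Serpina1e was not called. On the adjusted p alone they were 3 in Tom+ against Tom- in CCl4, and for CCl4 against oil 3 in Tom- and 7 in Tom+. The count of 3 in CCl4 against oil in Tom- was 0 with upper-quartile scaling and 1 with RLE scaling. With Tom+ and Tom- counts summed per treatment and number, 1 was called in CCl4 against oil (Serpina3k). Leaving out single libraries gave 0 to 1 called members in Tom+ against Tom- in CCl4 and in the interaction, in each case Serpina3k, the first without Tom- CCl4 replicate 3 (-0.82, adjusted p = 0.00783) or Tom+ CCl4 replicate 1 (-0.78, adjusted p = 0.0316) and the second without Tom- CCl4 replicate 3 (-0.82, adjusted p = 0.0420). The cause was not tested. The block changed no other call on both thresholds.

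Values that turned in sign were small or of Serpina3g. In Tom+ against Tom- in oil, Serpina3k was 0.0121 with upper-quartile scaling, 0.0000 with at least 10 counts in every library and 0.0010 with library totals, Serpina3g was 0.0476 with limma-voom, 0.1102 with the block and 0.0790 on TPM, Serpina3m was -0.0048 on TPM, and without the 2 doubted oil libraries Serpina1c was 0.0238 and Serpina3m -0.0578. In CCl4 against oil in Tom-, Serpina3g was -0.0438 without these 2 libraries and -0.2064 in the summed fit. On TPM, Serpina1a was 0.0451 and Serpina1e 0.0298 in Tom+ against Tom- in CCl4, and Serpina1a 0.0341 as an interaction. Leaving out single libraries gave, in oil, -0.0132 to 0.0651 for Serpina1a, -0.1037 to 0.0512 for Serpina1c, -0.0030 to 0.1045 for Serpina1d, -0.4529 to 0.8089 for Serpina3g, -0.0693 to 0.0433 for Serpina3k and -0.0256 to 0.0589 for Serpina3m. It gave -0.0526 to 1.1 for Serpina3g in CCl4 against oil in Tom- and -0.5518 to 0.1183 for Serpina1e in Tom+ against Tom- in CCl4. Of the member values under an alternative, 1083 kept their direction and call, 33 turned in sign, 6 came to pass both thresholds, and 12 came to be called where the fold threshold was dropped.

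Over all genes, called as higher and lower were 38 and 298 in Tom+ against Tom- in CCl4, 126 and 556 with the block, 62 and 468 with DESeq2, and 0 and 0 without both CCl4 libraries numbered 2. For the interaction they were 37 and 164, 220 and 718 with the block, and 107 and 459 with DESeq2. In oil they were 0 and 0, 11 and 29 with the block, and 7 and 10 with DESeq2. In CCl4 against oil in Tom+ they were 497 and 400, and 366 and 248 without the doubted pair of oil libraries. Settings with library totals, TPM and without both CCl4 libraries numbered 2 were chosen after seeing the data. Serpina3g rests on 75.5 to 378 counts per library, the other 8 members on 18100 or more.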
